A study of Homo sapiens with 24 samples.

Results

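The 10 genes described here, DUSP1, DUSP4, DUSP5, DUSP6, SPRY1, SPRY2, SPRY4, SPRED1, SPRED2 and ERRFI1, encode feedback inhibitors of growth factor signaling through the RAS-ERK pathway. They were chosen by symbol from the 23946 gene symbols of the deposited tables, and all 10 were listed in both experiments of the study. RNA was measured by RNA-seq in LNCaP, a human prostate cancer line that responds to androgen, after 3 days in charcoal-stripped serum, which holds little androgen. In the ligand experiment, cells received vehicle, 10 nM of the androgen DHT for 4 h or 24 h, or 10 μM of the antiandrogen enzalutamide for 4 h or 24 h, with 2 libraries per condition. In the siRNA experiment, cells transfected with a control siRNA (siControl) or a pool of siRNAs against the transcription factor GATA2 (siGATA2) received, from 72 h after transfection, either vehicle or enzalutamide at 25 μM, which stayed on for 24 h, with 3 libraries per condition. No agent other than the siRNA, DHT, enzalutamide or vehicle distinguished the groups, and all groups shared the androgen-depleted medium.

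ERK is a mitogen-activated protein kinase (MAPK) that is switched on by phosphorylation when receptor tyrosine kinases load RAS with GTP. The dual-specificity phosphatases remove those phosphates. DUSP1, DUSP4 and DUSP5 do so in the nucleus and DUSP6 in the cytoplasm, and DUSP5 and DUSP6 act mainly on ERK, whereas DUSP1 also acts on the stress kinases p38 and JNK. Sprouty proteins (SPRY1, SPRY2 and SPRY4) block the pathway between receptor and RAF, the related SPRED proteins bring the RAS inactivator neurofibromin to the membrane, and ERRFI1, also called MIG6, binds the EGF receptor and inhibits its kinase. Many of these genes are themselves induced by ERK signaling, so that they form negative feedback, and several are used as readouts of pathway output in tumor cells.

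Limits of the model bear on every value below. LNCaP is 1 cell line, the siRNA pool lowered GATA2 RNA without removing it (82.3 ± 4.72 RPKM in siControl and 51.4 ± 4.22 RPKM in siGATA2 cells under vehicle, SD, n = 3; 129 ± 1.97 and 62.1 ± 2.37 under enzalutamide), and no time was given for the vehicle of the ligand experiment, which served as the control at both times and for both ligands. The 4 vehicle columns were labeled as separate biological replicates, but 3 of them carried replicate number 1 in their headers and differed from each other by a mean chi-square of 1.51 to 1.54 per gene, against 3.42 to 3.59 from the other column, and were counted as 1 library. The 2 libraries of enzalutamide for 4 h differed most among the same-condition pairs (9.32, against 1.98 to 4.93 in the other conditions). The column headers also carry one of 3 set names, which partly follow the conditions. Both DHT 4 h libraries were in the first set, both enzalutamide 4 h libraries in the second and both enzalutamide 24 h libraries in the third. The DHT 24 h libraries were split, the first being in the second set and the other in the third. Each set held vehicle columns. The header set as a term in the fit was therefore added as an alternative. In that fit the 4 vehicle columns entered as separate samples, so the 3 with replicate number 1 were not summed. Its estimates of the set effect and of the spread thus rest in part on columns counted elsewhere as 1 library. Library totals were 38894876 to 59985287 estimated counts in the ligand experiment. Luminal markers were present, with KLK3, which encodes prostate-specific antigen, at 17.6 to 815.5 RPKM, whereas the basal, fibroblast, endothelial and leukocyte markers KRT5, TP63, DCN, PECAM1 and PTPRC were at most 0.0295 RPKM. The other markers of these types were higher, with basal KRT14 at most 0.113, fibroblast COL3A1 at most 0.733 and endothelial VWF at 0.362 to 1.25 RPKM. COL1A1, also a fibroblast marker, at 9.62 to 16.3 RPKM, made up most of the sum of the other cell type markers. The labels call the libraries of a condition biological replicates without saying whether they came from separate cultures, so p-values measure the spread between these libraries, which may be technical.

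Promoter sequence is shown for the 3 members that the results below turn on: DUSP1 for its siRNA effect, ERRFI1 for its DHT and enzalutamide responses and SPRY4 for its enzalutamide response with either siRNA. The windows are the 250 bases before the annotated start in RefSeq (GRCh38.p14), written 5′ to 3′ along the strand of the gene.
DUSP1, chr5:172771196-172771445, minus strand: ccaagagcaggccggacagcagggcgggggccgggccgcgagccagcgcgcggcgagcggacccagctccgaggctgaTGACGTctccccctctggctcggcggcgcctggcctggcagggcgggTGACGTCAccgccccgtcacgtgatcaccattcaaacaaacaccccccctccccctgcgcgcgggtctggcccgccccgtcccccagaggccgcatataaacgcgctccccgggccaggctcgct
ERRFI1, chr1:8026310-8026559, minus strand: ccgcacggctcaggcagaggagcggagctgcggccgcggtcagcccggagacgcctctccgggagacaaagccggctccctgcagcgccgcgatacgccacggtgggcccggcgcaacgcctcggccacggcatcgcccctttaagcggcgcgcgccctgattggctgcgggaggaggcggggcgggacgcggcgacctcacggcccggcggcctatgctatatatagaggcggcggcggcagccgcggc
SPRY4, chr5:142324248-142324497, minus strand: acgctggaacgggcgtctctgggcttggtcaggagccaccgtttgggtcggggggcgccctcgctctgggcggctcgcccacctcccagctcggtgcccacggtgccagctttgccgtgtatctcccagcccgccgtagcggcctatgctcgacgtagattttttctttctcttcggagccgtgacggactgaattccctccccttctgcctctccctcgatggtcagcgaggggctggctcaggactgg
Capitals mark matches, on either strand, to any of 4 motifs. Windows were found for 8 of the 10 members (12 windows), DUSP4 and DUSP5 being those not matched. In the DUSP1 window the capitals are the core of the cAMP response element, TGACGT, at 172 and 125 bases before the start, and its reverse complement at 123 bases, which overlaps the second match. That core was in 7.1% of all 35116 windows of this length and in 1 of the 12 windows of the members. The GATA motif AGATAA (9.17% of all windows) and the AP-1 motif TGACTCA (4.2%) matched none of the 12 windows. The ETS motif CCGGAA (14.5%) matched 1 window of SPRY1 and 1 of SPRY2. GC content of the windows ranged from 39.2% to 78.4%, where the median of all windows was 58%. These matches describe letters in a short window only.

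Levels of different genes were compared per kilobase, in RPKM (a unit inferred from the values), in the siRNA experiment. In siControl cells under vehicle, DUSP4 and ERRFI1 were the most abundant members, at 13.9 ± 0.317 and 12.02 ± 0.259 RPKM (SD, n = 3). DUSP1 followed at 7.26 ± 0.145, SPRED2 at 5.44 ± 0.119, SPRED1 at 3.49 ± 0.104, DUSP5 at 2.22 ± 0.0572, SPRY1 at 1.68 ± 0.0388 and SPRY2 at 1.11 ± 0.0087 RPKM. The level of SPRY4 was 0.251 ± 0.0281 RPKM and that of DUSP6, the cytoplasmic ERK phosphatase, was 0.184 ± 0.0325 RPKM, the lowest of the set. No neighbors in this order overlapped across the 3 libraries. In siGATA2 cells under vehicle the order changed: DUSP1 came first at 27.9 ± 2.48 RPKM, then ERRFI1 at 12.8 ± 0.125 and DUSP4 at 6.73 ± 0.357, while SPRED2 overlapped DUSP5 and SPRY4 overlapped SPRY2. The summed level of the 10 members was 46.9 to 48.1 RPKM in siControl cells under vehicle and 62.6 to 69.3 RPKM in siGATA2 cells under vehicle, with DUSP1 higher and DUSP4 lower.

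**Figure D1:**
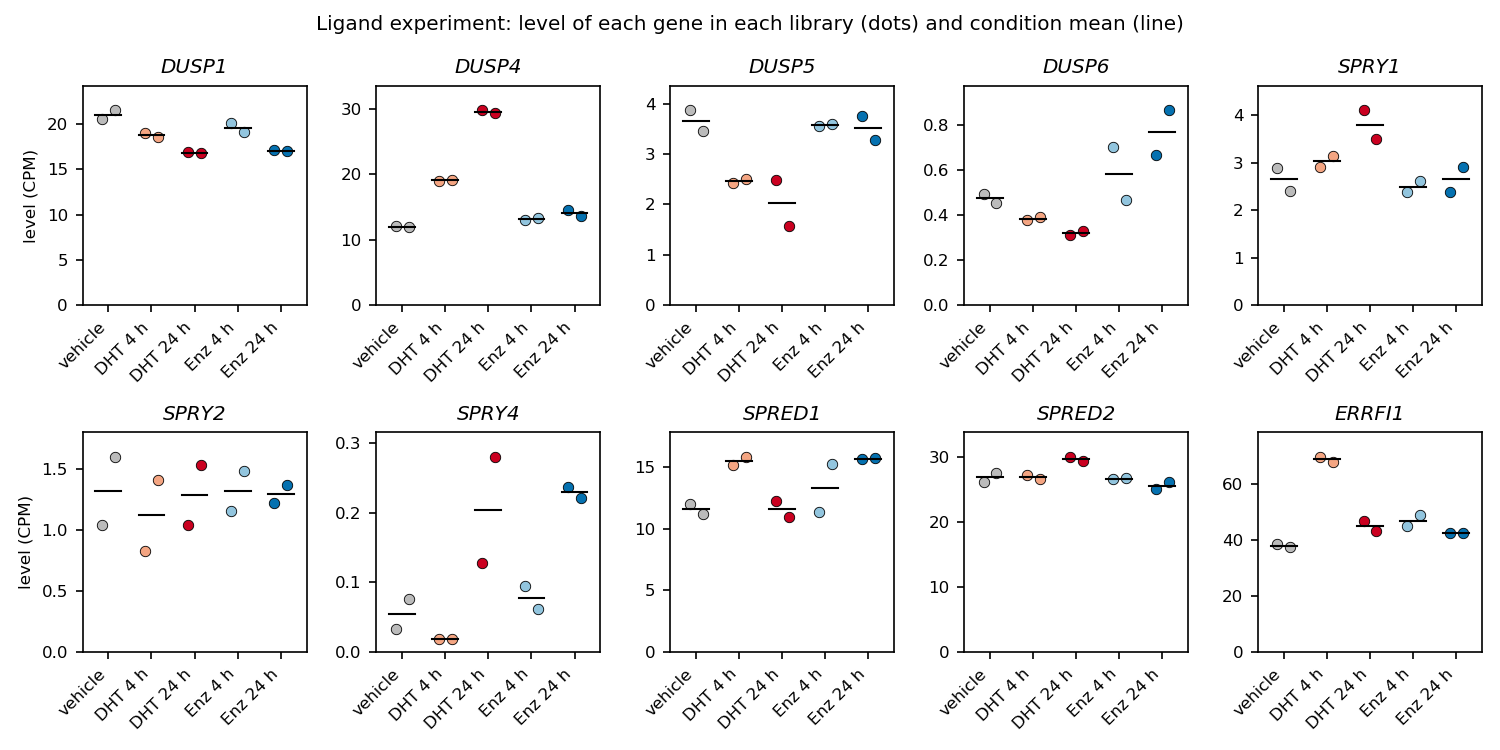
Levels of the 10 members in the ligand experiment, as counts scaled to library size by TMM (CPM) on axes that start at 0, with 1 point per library (n = 2 per condition) and a line at the mean. DUSP4 rose from 11.9 to 12.008 CPM under vehicle to 29.3 to 29.7 CPM after 24 h of DHT, and ERRFI1 was highest after 4 h of DHT (67.9 and 69.7 CPM).

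Values of the ligand experiment are given as CPM scaled by TMM, and a member was called when its edgeR adjusted p (Benjamini-Hochberg over 15555 genes) was below 0.05. All 10 members passed the filter on low counts, but SPRY4 did so only through its 24 h libraries, where it was high, so it is described separately and left out of the counts here. After 4 h of DHT, 3 of the other 9 members were called, all higher (DUSP4, SPRED1 and ERRFI1), where 6.77% of all genes tested were called. After 24 h of DHT, 6 of the 9 were called, 4 higher and 2 lower, against 50% of all genes. Enzalutamide for 4 h gave 1 call, the rise of ERRFI1, against 13.6% of all genes, and enzalutamide for 24 h gave 4 calls, 3 higher and 1 lower, against 33.4%. Shares of members were thus close to, or not far above, those of all genes except after 4 h of DHT, and with 9 members no more is read from the counts. The median log2 fold change of these 9 was 0.0075 (DHT, 4 h), -0.0014 (DHT, 24 h), 0.044 (enzalutamide, 4 h) and 0.014 (enzalutamide, 24 h), where the medians of all genes lay between -0.00852 and 0.0148. All 4 comparisons share the vehicle libraries.

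Of the nuclear phosphatases, DUSP4 responded most to DHT. Its level was 12.008 and 11.9 CPM under vehicle, 19.0 and 19.1 CPM after 4 h of DHT and 29.7 and 29.3 CPM after 24 h, with no overlap between these groups. The rise was 1.59-fold at 4 h (log2 0.67 ± 0.06, SE, edgeR adjusted p = 4.43e-06) and 2.47-fold at 24 h (log2 1.30 ± 0.06, edgeR adjusted p = 1.14e-09). Enzalutamide moved DUSP4 in the same direction and far less, to 13.0 and 13.3 CPM at 4 h (edgeR adjusted p = 0.154) and 14.5 and 13.7 CPM at 24 h (1.18-fold, edgeR adjusted p = 0.00844). The 24 h enzalutamide call was lost in DESeq2 (adjusted p = 0.0676), with the header set as a term (edgeR adjusted p = 0.0523) and without the first 24 h enzalutamide library (edgeR adjusted p = 0.109).

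DUSP5, the nuclear phosphatase that acts on ERK, went the other way under DHT. It was at 3.87 and 3.45 CPM under vehicle, 2.43 and 2.51 CPM after 4 h of DHT and 2.49 and 1.58 CPM after 24 h. Every DHT library lay below both vehicle libraries, and the 2 libraries of 24 h of DHT differed from each other more than those of any other condition. The level was 1.77-fold lower at 24 h (log2 -0.82 ± 0.17, edgeR adjusted p = 0.00157). At 4 h the log2 difference of -0.57 ± 0.17 did not pass (edgeR adjusted p = 0.0627), although it passed when the 4 vehicle columns were kept apart (edgeR adjusted p = 0.0189) or no filter was set (edgeR adjusted p = 0.00278), and without either 24 h DHT library (0.0197 and 0.0191) or either 4 h enzalutamide library (0.0424 and 0.0436). Under enzalutamide DUSP5 stayed between 3.27 and 3.75 CPM, overlapping vehicle at both times.

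DUSP1, the phosphatase with the broadest substrates of the set, was modestly lower after 24 h of either ligand. Its level was 20.5 and 21.5 CPM under vehicle, 16.9 and 16.8 CPM after 24 h of DHT and 17.1 and 17.0 CPM after 24 h of enzalutamide. Both 24 h groups lay below vehicle without overlap, by 1.25-fold for DHT (log2 -0.32 ± 0.06, edgeR adjusted p = 0.000424) and 1.23-fold for enzalutamide (log2 -0.30 ± 0.06, edgeR adjusted p = 0.0011). The 4 h levels were intermediate, at 19.0 and 18.6 CPM for DHT and 20.1 and 19.1 CPM for enzalutamide, and neither passed (edgeR adjusted p = 0.12 and 0.271). DHT and enzalutamide at 24 h differed by log2 -0.01 (95% interval -0.14 to 0.11).

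DUSP6, the cytoplasmic ERK phosphatase, was counted 13 to 43 times per library. It was at 0.496 and 0.457 CPM under vehicle, 0.311 and 0.331 CPM after 24 h of DHT and 0.670 and 0.867 CPM after 24 h of enzalutamide. Neither ligand passed against vehicle at 24 h (log2 -0.58, edgeR adjusted p = 0.148 for DHT; log2 0.68 with a 95% interval of 0.10 to 1.25, edgeR adjusted p = 0.0664 for enzalutamide). Summed over libraries, the count ratio of enzalutamide for 24 h to vehicle was 1.60 (95% counting interval 1.10 to 2.35). Such intervals cover counting error only. Set directly against each other at 24 h, DHT was 2.39-fold below enzalutamide (log2 -1.26, 95% interval -1.89 to -0.63, edgeR adjusted p = 0.00192).

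The Sprouty genes were the least abundant family of the set. SPRY1 was at 2.89 and 2.41 CPM under vehicle and 4.10 and 3.49 CPM after 24 h of DHT, a 1.43-fold rise (log2 0.51 ± 0.15, edgeR adjusted p = 0.0116). That call was lost without the second vehicle library (edgeR adjusted p = 0.0759), without the first 24 h DHT library (0.123) and with the header set as a term (0.0637). The other ligand conditions left SPRY1 between 2.38 and 3.14 CPM, with edgeR adjusted p from 0.586 to 0.943. SPRY2 lay between 0.830 and 1.60 CPM in all 10 libraries, and in each condition library 1 was below library 2. Its log2 differences from vehicle were -0.19 to 0.04, with 95% intervals that reached from -0.81 to 0.66, so that changes below about this size were not detectable.

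SPRY4 was counted 2 and 3 times in the vehicle libraries, 1 time in each 4 h DHT library and 4 and 3 times after 4 h of enzalutamide. At 24 h the counts were 7 and 11 under DHT and 12 and 11 under enzalutamide. The 24 h libraries of both ligands thus lay above all others. Summed over libraries, the ratio to vehicle was 3.68 for 24 h of DHT (95% counting interval 1.32 to 12.7) and 4.59 for 24 h of enzalutamide (1.71 to 15.5). Because these high libraries also admitted SPRY4 to the test, no call is drawn from the filtered fit. In the fit without a filter on low counts, the log2 differences, which depend on the prior count, were 1.89 ± 0.78 (edgeR adjusted p = 0.0419) for DHT and 2.12 ± 0.74 (edgeR adjusted p = 0.0201) for enzalutamide. That fit was not repeated with a library left out or with the header set as a term. With the filter, both values missed the threshold with the header set as a term (0.139 and 0.23) and without the first vehicle library (0.208 and 0.16), that of DHT without the second 24 h DHT library (0.192) and in DESeq2 (0.162), and that of enzalutamide without either of its own libraries (0.0739 and 0.0622). DESeq2 gave no adjusted p for SPRY4 after 24 h of enzalutamide.

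SPRED1 and SPRED2, the neurofibromin partners, behaved differently from each other. SPRED1 was at 12.025 and 11.2 CPM under vehicle, 15.2 and 15.8 CPM after 4 h of DHT, 12.2 and 11.0 CPM after 24 h of DHT and 15.6 and 15.7 CPM after 24 h of enzalutamide. Its rises were 1.33-fold after 4 h of DHT (log2 0.41 ± 0.11, edgeR adjusted p = 0.0347) and 1.34-fold after 24 h of enzalutamide (log2 0.43 ± 0.11, edgeR adjusted p = 0.00834), and the groups did not overlap vehicle. After 4 h of enzalutamide the libraries were apart, at 11.3 and 15.3 CPM (log2 0.20, edgeR adjusted p = 0.273). Without the first of them the difference from vehicle was log2 0.39 (edgeR adjusted p = 0.0049).

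The DHT call for SPRED1 at 4 h was lost without any single vehicle library (edgeR adjusted p = 0.0934 and 0.203), 4 h DHT library (0.119 and 0.207) or 24 h enzalutamide library (0.0572 and 0.0573) and with the replicate block (0.051). Its 24 h enzalutamide call was lost without the second vehicle library (0.065) and the second 24 h enzalutamide library (0.0542). SPRED2 ranged from 25.1 to 30.003 CPM over all libraries. It was higher after 24 h of DHT, at 30.003 and 29.4 CPM against 26.2 and 27.5 CPM (1.11-fold, edgeR adjusted p = 0.0234). That call was lost without the first vehicle library (0.159), without either 24 h DHT library (0.119 and 0.0535), in DESeq2 (0.0873), without a filter (0.0626), with library size in place of TMM (log2 0.09, edgeR adjusted p = 0.142) and with the header set as a term (0.0848).

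ERRFI1, the inhibitor of the EGF receptor, was the member with the strongest early response to DHT. It was at 38.6 and 37.4 CPM under vehicle and 69.7 and 67.9 CPM after 4 h of DHT, and at 46.7 and 43.2 CPM after 24 h. The rises were 1.81-fold at 4 h (log2 0.86 ± 0.05, edgeR adjusted p = 1.61e-07) and 1.18-fold at 24 h (log2 0.24 ± 0.05, edgeR adjusted p = 0.00221). Enzalutamide raised ERRFI1 as well, to 44.8 and 49.0 CPM at 4 h (1.24-fold, log2 0.30 ± 0.05, edgeR adjusted p = 0.00308) and 42.6 CPM in both libraries at 24 h (1.12-fold, log2 0.16 ± 0.05, edgeR adjusted p = 0.0337). All 8 treated libraries were above both vehicle libraries. The 24 h enzalutamide call was lost in DESeq2 (0.0907), with RLE factors (0.0602) and without any one vehicle library (0.09 and 0.181), 24 h enzalutamide library (0.153 and 0.162) or 4 h DHT library (0.0688 and 0.0683).

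**Figure D2:**
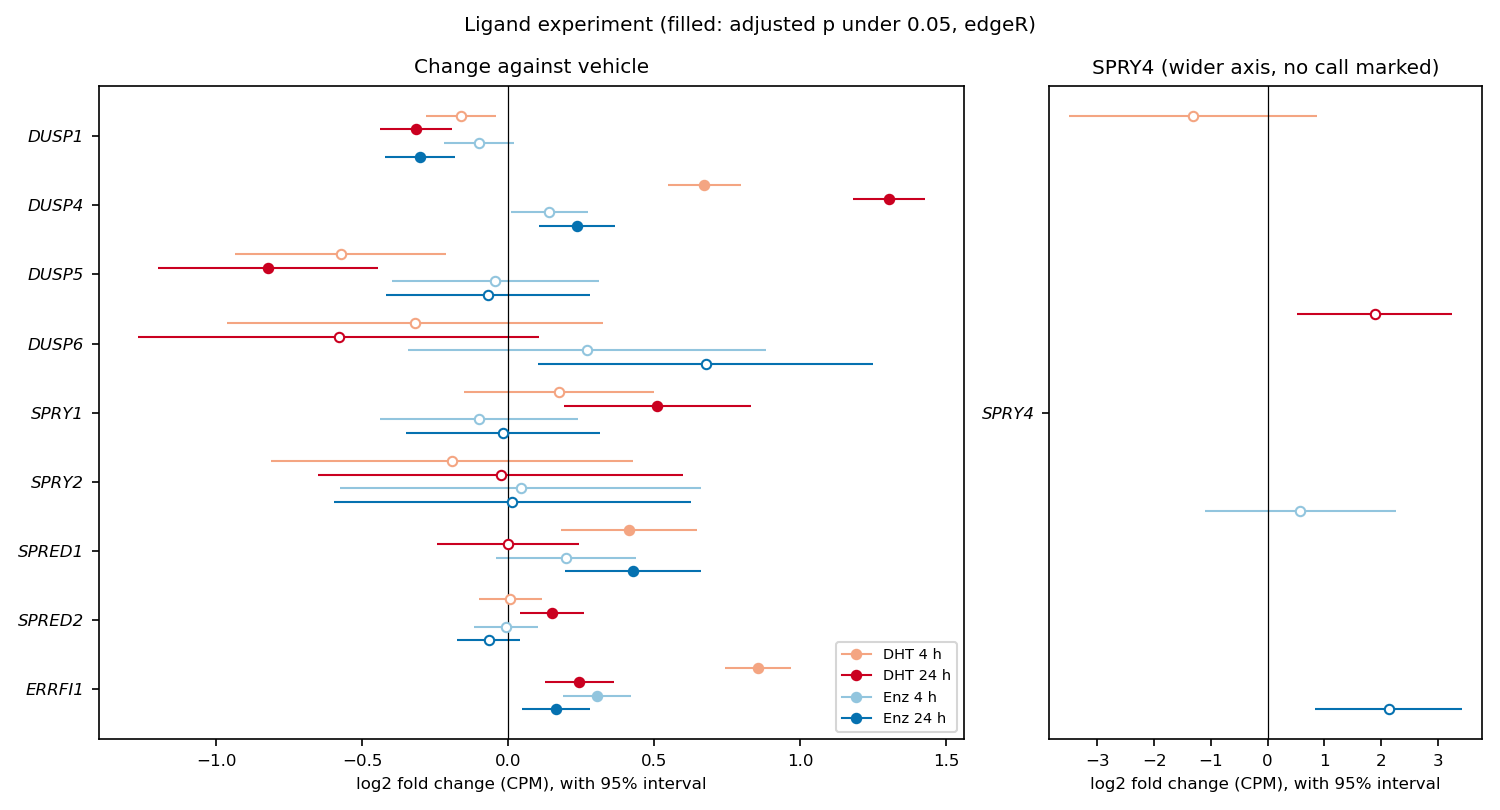
Log2 fold changes of the 10 members against vehicle in the ligand experiment, with 95% intervals from the edgeR model and filled points where the adjusted p was below 0.05. The largest called values with a narrow interval are those of DUSP4 after 24 h of DHT (1.30) and ERRFI1 after 4 h of DHT (0.86), and SPRY4, in its own panel with a wider axis, has the widest intervals and is drawn with no call marked.

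The time course of DHT was tested directly. Between 4 h and 24 h of DHT, 5 of the 9 members other than SPRY4 were called, 2 higher and 3 lower, against 49.8% of all genes. DUSP4 went on rising (log2 0.63, edgeR adjusted p = 6.31e-07), whereas ERRFI1 fell 1.53-fold (log2 -0.61, edgeR adjusted p = 7.05e-07) and SPRED1 fell 1.33-fold (log2 -0.41, edgeR adjusted p = 0.00612). SPRY4, counted 2 times at 4 h and 18 times at 24 h over both libraries, had a count ratio of 9.95 (95% counting interval 2.38 to 88.4), and its edgeR adjusted p in the fit without a filter was 0.00221. DUSP1 was lower by log2 0.15 (edgeR adjusted p = 0.0362) and SPRED2 higher by log2 0.14 (edgeR adjusted p = 0.0289). The SPRED1 call was lost without the second 24 h DHT library (0.0522), and the calls of DUSP1 (log2 -0.07, adjusted p = 0.539) and SPRED2 (0.299) with the header set as a term, where the adjusted p of SPRY4 was 0.18. DUSP1 and SPRED2 also lost their calls without any single DHT library, with adjusted p of 0.0725 to 0.162.

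Between 4 h and 24 h of enzalutamide, 1 of the 9 was called, against 24.6% of all genes: DUSP1 was lower at 24 h (1.15-fold, edgeR adjusted p = 0.0199). It lost the call in DESeq2 (0.0618), with the header set as a term (0.118), and without the first 4 h library (0.0976) or either 24 h library (0.0831 and 0.0989). The count ratio of SPRY4 was 3.03 (95% counting interval 1.26 to 8.37), with an edgeR adjusted p of 0.106 in the fit without a filter.

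DHT and enzalutamide were compared at matched times, their doses being 10 nM and 10 μM. At 4 h, 2 of the 9 differed, against 15.8% of all genes: DUSP4 (1.45-fold, edgeR adjusted p = 2.66e-05) and ERRFI1 (1.47-fold, edgeR adjusted p = 7.29e-06) were higher under DHT. DUSP5 was lower under DHT by log2 -0.53 ± 0.17 and missed the threshold at 4 h (edgeR adjusted p = 0.0508). It passed with library size only (0.0462), without a filter (0.00551), with a filter of at least 1 CPM (0.0471), with the vehicle columns apart (0.0371), with the replicate block (0.0449) and without either 24 h DHT library (0.0185 and 0.0181). SPRED1 passed without a filter (log2 0.22, adjusted p = 0.0394) and without the second 4 h enzalutamide library (log2 0.46, adjusted p = 0.00251). At 24 h, 6 of the 9 differed, against 64.9% of all genes. DUSP4 was 2.10-fold higher under DHT (edgeR adjusted p = 1.72e-09), as were SPRY1 (1.44-fold, adjusted p = 0.00675) and SPRED2 (1.16-fold, adjusted p = 0.00187). DUSP5 (1.69-fold, edgeR adjusted p = 0.002), DUSP6 (2.39-fold, given above) and SPRED1 (1.35-fold, edgeR adjusted p = 0.00358) were lower under DHT. The DUSP5 difference of log2 -0.75 became -1.14 without the first 24 h DHT library and -0.49 without the second. The SPRY1 call was lost without the first 24 h DHT library (edgeR adjusted p = 0.0774) or the first 24 h enzalutamide library (0.0725). ERRFI1 no longer separated the ligands at 24 h (log2 0.08, 95% interval -0.04 to 0.20).

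**Figure D3:**
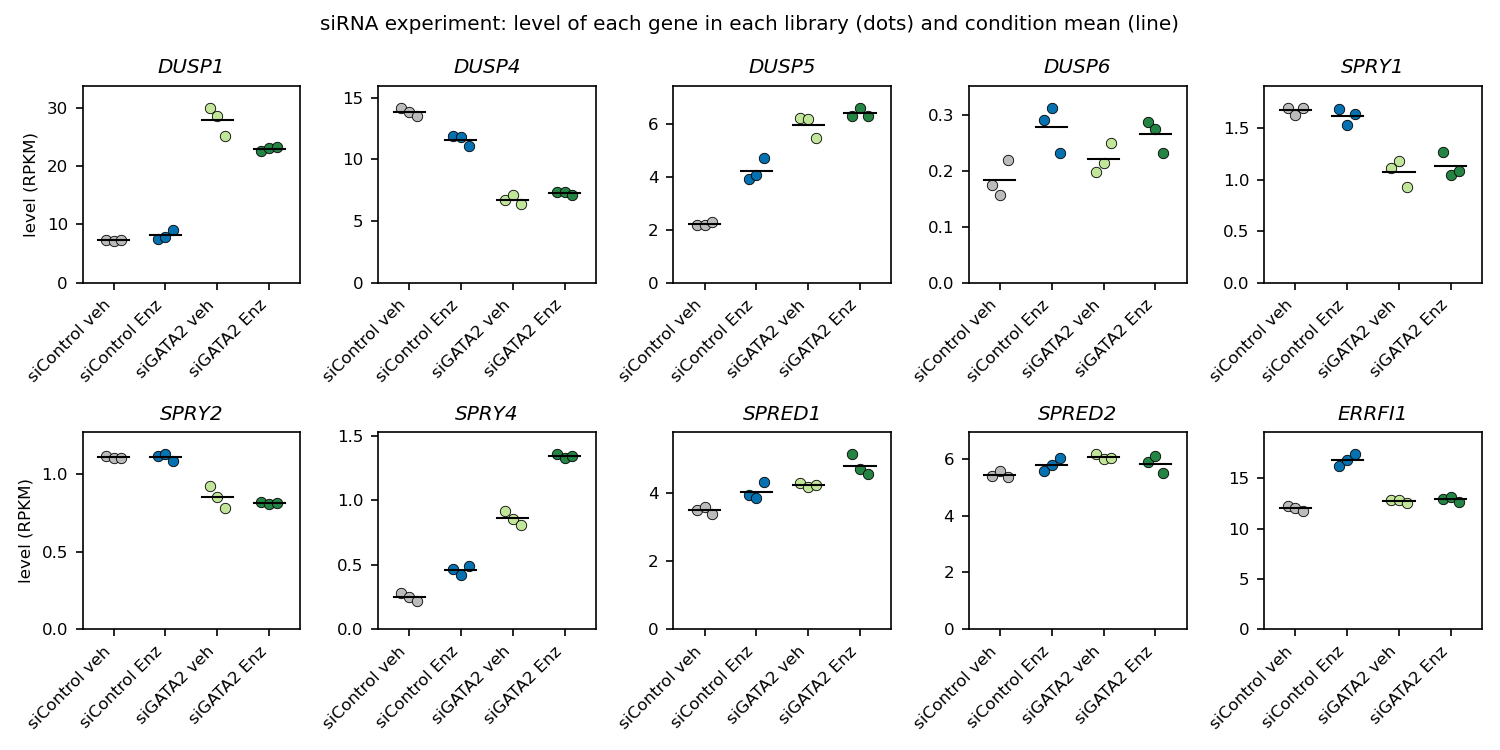
Levels of the 10 members in the siRNA experiment, in RPKM on axes that start at 0, with 1 point per library (n = 3 per condition) and a line at the mean. DUSP1 was at 7.09 to 7.37 RPKM in siControl and 25.1 to 29.97 RPKM in siGATA2 cells under vehicle, while DUSP4 went from 13.5 to 14.2 RPKM down to 6.39 to 7.10 RPKM.

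In the siRNA experiment, tests were made with limma on log2(RPKM + 0.1) over 20369 genes, and fold changes are on that scale, which understates the change of low genes such as SPRY4 and DUSP6. With siGATA2 under vehicle, 9 of 10 members were called, 6 higher and 3 lower, where 55.6% of all genes were called. Under enzalutamide, siGATA2 against siControl gave 8 calls, 4 higher and 4 lower, against 54.5%. Enzalutamide gave 6 calls in siControl cells, 5 higher and 1 lower, against 42.1%, and 1 call in siGATA2 cells, against 0.412%. The interaction, which tests whether the enzalutamide response differed between the siRNAs, gave 4 calls against 25.8%. Median log2 fold changes of the members were 0.16, -0.02, 0.18, 0.09 and -0.11 in these comparisons, and those of all genes lay between -0.0268 and 0.0149. The summed level of 6 luminal markers moved with the siRNA and with enzalutamide (1230 to 1293 RPKM in siControl cells under vehicle, 618.0 to 683.1 under enzalutamide, and 383.3 to 405.9 in all siGATA2 libraries), as did that of the other cell type markers (11.4 to 12.4, 12.9 to 14.3 and 14.1 to 17.6 RPKM). Their part in the results was not tested. In bulk RNA, fewer cells that express a gene and less RNA per cell cannot be told apart.

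On the log2(RPKM + 0.1) scale, which understates the change of SPRY4, the largest siRNA effect among the members was on DUSP1. Its level was 7.37, 7.09 and 7.30 RPKM in siControl cells under vehicle and 29.97, 28.5 and 25.1 RPKM in siGATA2 cells under vehicle. Under enzalutamide it was 7.44, 7.82 and 9.02 RPKM with siControl and 22.6, 23.0 and 23.3 RPKM with siGATA2. The siRNA groups were far apart under both treatments, by 3.79-fold under vehicle (log2 1.92 ± 0.07, limma adjusted p = 6.42e-09) and 2.83-fold under enzalutamide (log2 1.50 ± 0.07, limma adjusted p = 3.70e-08). Enzalutamide shifted DUSP1 by log2 0.15 in siControl cells (limma adjusted p = 0.128, and log2 0.20 with adjusted p = 0.0441 when each library was centered on its median) and by -0.27 in siGATA2 cells (limma adjusted p = 0.187). The difference between these responses passed (log2 -0.42 ± 0.10, limma adjusted p = 0.0128).

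DUSP4 moved opposite to DUSP1 with the siRNA. It was at 14.2, 13.8 and 13.5 RPKM in siControl cells under vehicle and 6.69, 7.10 and 6.39 RPKM in siGATA2 cells, a 2.05-fold fall (log2 -1.03 ± 0.04, limma adjusted p = 9.28e-09). With enzalutamide the levels were 11.9, 11.8 and 11.1 RPKM and 7.37, 7.36 and 7.07 RPKM (log2 -0.67 ± 0.04, limma adjusted p = 2.16e-07). In siControl cells all enzalutamide libraries were below all vehicle libraries (log2 -0.25 ± 0.04, limma adjusted p = 0.000603), whereas in siGATA2 cells the groups overlapped (log2 0.11, limma adjusted p = 0.367). The interaction was log2 0.36 ± 0.06 (limma adjusted p = 0.00131).

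DUSP5 rose with the siRNA and with the drug. In siControl cells it was at 2.18, 2.19 and 2.28 RPKM under vehicle and 3.94, 4.08 and 4.71 RPKM under enzalutamide, a 1.87-fold rise (log2 0.90 ± 0.07, limma adjusted p = 3.63e-06). In siGATA2 cells it was at 6.24, 6.19 and 5.47 RPKM under vehicle and 6.32, 6.63 and 6.33 RPKM under enzalutamide (log2 0.11, limma adjusted p = 0.634). The siGATA2 level under vehicle thus exceeded every siControl library, by 2.62-fold against siControl under vehicle (log2 1.39 ± 0.07, limma adjusted p = 4.36e-08). Under enzalutamide the siRNA difference was 1.51-fold (log2 0.59 ± 0.07, limma adjusted p = 2.97e-05). The enzalutamide responses differed by log2 -0.80 ± 0.10 (limma adjusted p = 0.000273).

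DUSP6 was low in all 12 libraries, from 0.157 to 0.313 RPKM. In siControl cells it was at 0.176, 0.157 and 0.220 RPKM under vehicle and 0.291, 0.313 and 0.233 RPKM under enzalutamide (log2 0.41 ± 0.12, limma adjusted p = 0.0155). That call was lost without the second siControl vehicle library (0.0586) or the second siControl enzalutamide library (0.0601). With a pseudocount of 1 the value was log2 0.11, with the call kept (limma adjusted p = 0.0114). The siRNA made no called difference under vehicle (log2 0.18, 95% interval -0.08 to 0.44) or enzalutamide (log2 -0.05, 95% interval -0.31 to 0.21).

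SPRY1 and SPRY2 were lower with siGATA2. SPRY1 was at 1.70, 1.63 and 1.69 RPKM in siControl and 1.11, 1.18 and 0.935 RPKM in siGATA2 cells under vehicle (1.51-fold lower, log2 -0.60 ± 0.09, limma adjusted p = 0.000221). SPRY2 was at 1.12, 1.10 and 1.11 RPKM and 0.925, 0.852 and 0.784 RPKM (1.27-fold lower, log2 -0.35 ± 0.07, limma adjusted p = 0.000968). Neither pair of groups overlapped. Under enzalutamide both genes were again lower with siGATA2 (log2 -0.48, limma adjusted p = 0.00104 for SPRY1; log2 -0.41, limma adjusted p = 0.000313 for SPRY2). With a pseudocount of 1 these 4 values shrank to -0.37, -0.19, -0.30 and -0.22, with the calls kept. Enzalutamide itself moved SPRY2 by log2 0.00 in siControl cells (95% interval -0.14 to 0.15).

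SPRY4 ran opposite to its family. It was at 0.277, 0.253 and 0.221 RPKM in siControl cells under vehicle and 0.467, 0.416 and 0.492 RPKM under enzalutamide. In siGATA2 cells it was at 0.915, 0.858 and 0.805 RPKM under vehicle and 1.36, 1.33 and 1.34 RPKM under enzalutamide. The 4 conditions did not overlap. The siRNA difference was 2.74-fold under vehicle (log2 1.45 ± 0.09, limma adjusted p = 1.51e-07) and 2.59-fold under enzalutamide (log2 1.37 ± 0.09, limma adjusted p = 2.31e-07). The separately listed transcripts of the locus, SPRY4-IT1 and SPRY4-AS1, were at most 0.0396 and 0.0247 RPKM.

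Enzalutamide raised SPRY4 by 1.59-fold in siControl cells (log2 0.67 ± 0.09, limma adjusted p = 0.000119) and by 1.51-fold in siGATA2 cells (log2 0.59 ± 0.09, limma adjusted p = 0.0186). SPRY4 was among the 84 genes called for enzalutamide in siGATA2 cells and was the only member among them. The difference between the responses was log2 -0.08 (95% interval -0.35 to 0.19, limma adjusted p = 0.689). The added 0.1 shrinks the change more at the lower levels of siControl cells, so this difference depends on the scale. With a pseudocount of 1 it was log2 0.11. Mean levels of SPRY4 went from 0.251 to 0.459 RPKM in siControl cells and from 0.859 to 1.34 RPKM in siGATA2 cells. The call in siGATA2 cells was lost with the replicate block (0.0533) and without any one siGATA2 library, vehicle (0.0506, 0.0868 and 0.0582) or enzalutamide (0.0986, 0.0767 and 0.0853), while the fold change stayed between log2 0.55 and 0.63. With a pseudocount of 1 the 4 log2 values of SPRY4 were 0.57 and 0.68 for the siRNA and 0.22 and 0.33 for enzalutamide.

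SPRED1 was higher with siGATA2 and with enzalutamide by small amounts. Its levels were 3.48, 3.59 and 3.39 RPKM (siControl, vehicle), 3.92, 3.86 and 4.31 RPKM (siControl, enzalutamide), 4.27, 4.17 and 4.23 RPKM (siGATA2, vehicle) and 5.12, 4.69 and 4.55 RPKM (siGATA2, enzalutamide). The siRNA raised it 1.20-fold under vehicle (limma adjusted p = 0.00139) and 1.18-fold under enzalutamide (limma adjusted p = 0.00267), and enzalutamide raised it 1.15-fold in siControl cells (limma adjusted p = 0.0115). In siGATA2 cells the enzalutamide value was log2 0.18 (limma adjusted p = 0.254). SPRED2 kept between 5.36 and 6.15 RPKM, and only its siGATA2 difference under vehicle passed (1.11-fold, limma adjusted p = 0.0107). With quantile normalization the siGATA2 values under vehicle were log2 0.41 for SPRED1 and 0.26 for SPRED2, in place of 0.27 and 0.15, and with median centering the enzalutamide value of SPRED2 in siControl cells (log2 0.14) also passed (limma adjusted p = 0.021).

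The enzalutamide response of ERRFI1 was present in siControl cells and near 0 in siGATA2 cells. In siControl cells it was at 12.3, 12.034 and 11.8 RPKM under vehicle and 16.3, 16.8 and 17.4 RPKM under enzalutamide, a 1.40-fold rise (log2 0.48 ± 0.03, limma adjusted p = 5.22e-07). In siGATA2 cells it was at 12.8, 12.8 and 12.6 RPKM under vehicle and 13.0, 13.2 and 12.7 RPKM under enzalutamide, so that the groups overlapped (log2 0.02, 95% interval -0.04 to 0.08, limma adjusted p = 0.877). The interaction was log2 -0.46 ± 0.04 (limma adjusted p = 2.72e-05). The siRNA alone raised ERRFI1 by 1.06-fold under vehicle (limma adjusted p = 0.0256), and under enzalutamide siGATA2 cells were 1.30-fold below siControl cells (limma adjusted p = 8.95e-07). The vehicle value was lost as a call without the second or the third siControl vehicle library (0.0517 and 0.0936) or the first or second siGATA2 vehicle library (0.0675 and 0.0697), and was log2 0.14 with quantile normalization and 0.16 with median centering, in place of 0.08.

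**Figure D4:**
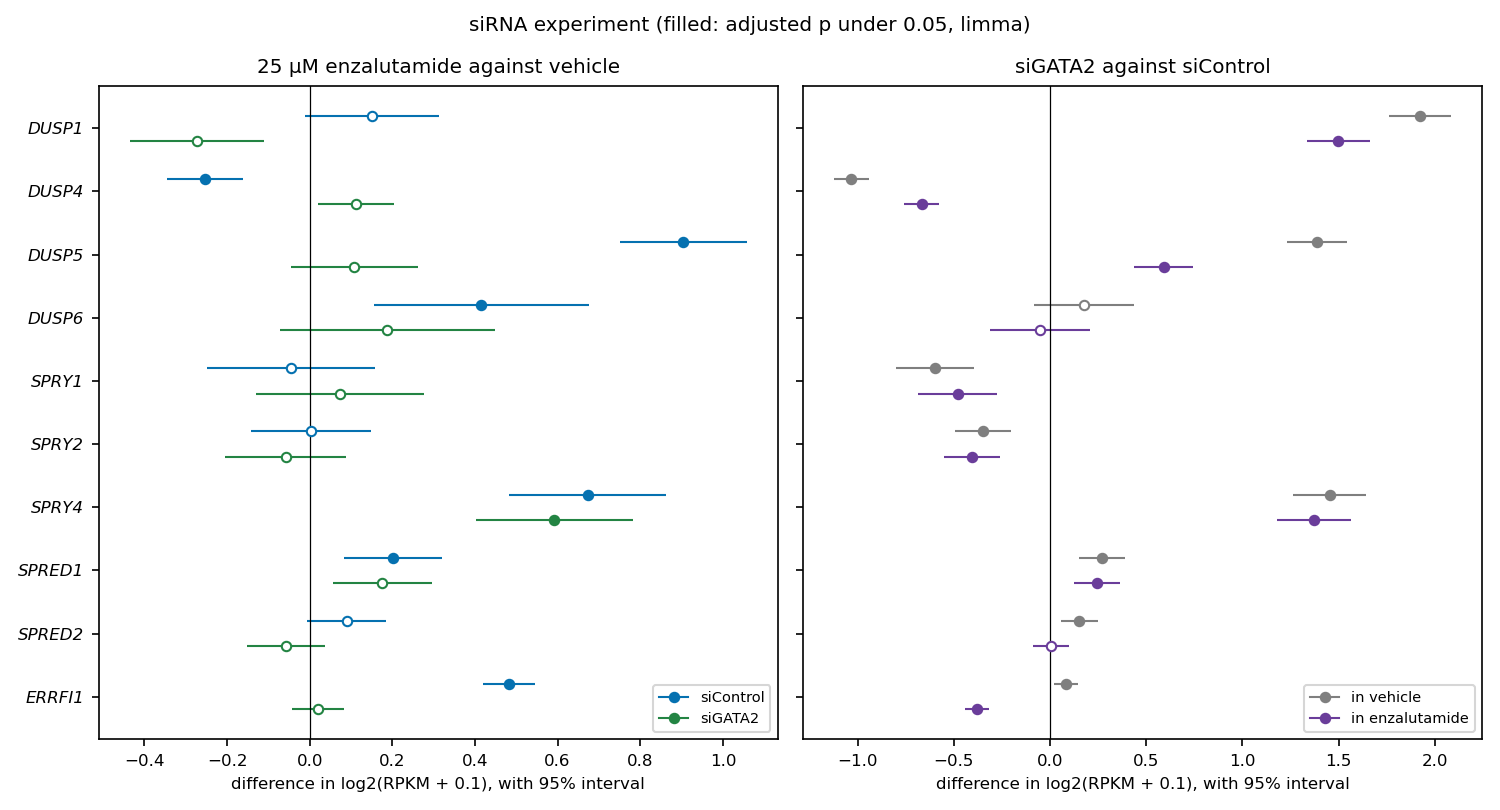
Differences in log2(RPKM + 0.1) of the 10 members for enzalutamide against vehicle (left) and siGATA2 against siControl (right), with 95% intervals from the limma model and filled points where the adjusted p was below 0.05. Enzalutamide moved ERRFI1 and DUSP5 in siControl cells (0.48 and 0.90) and by 0.02 and 0.11 in siGATA2 cells, while SPRY4 moved by 0.67 and 0.59. The added 0.1 shrinks the SPRY4 change more in siControl cells, where its level was lower.

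The 24 h enzalutamide values of both experiments stand side by side without a test, since the doses were 10 μM and 25 μM and the second set of cells was transfected. ERRFI1 was higher in both (log2 0.16 and 0.48), as was SPRED1 (0.43 and 0.20). SPRY4 had a count ratio of 4.59 in the ligand experiment and was 1.59-fold higher in siControl cells. DUSP6 was at 0.68 and 0.41, of which the second was called. These measures are unlike, since the siControl values are on the log2(RPKM + 0.1) scale, which understates the change of both genes. Their mean levels in siControl cells went from 0.251 to 0.459 RPKM (SPRY4) and from 0.184 to 0.279 RPKM (DUSP6). DUSP4 was higher at 10 μM (0.24) and lower at 25 μM in siControl cells (-0.25). DUSP5 was at -0.07 and 0.90, and DUSP1 at -0.30 and 0.15.

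Across the 9 condition means (log2 levels centered within each experiment), the pattern of DUSP4 was most like that of SPRY1 among the members (Pearson r = 0.967) and was opposite to that of DUSP5 (r = -0.905). DUSP1 and DUSP5 had r = 0.759, and DUSP1 and SPRY2 r = -0.842. Among 11646 genes at 1 CPM and 1 RPKM or more, those most like ERRFI1 were IRS2 (0.978), TSC22D1 (0.94) and PPM1A (0.904), those most like SPRY4 were ABCA3 (0.984), CANX (0.953) and GAS8 (0.945), and those most like DUSP6 were BACE1-AS (0.977), TDRD3 (0.976) and ARHGEF2 (0.97). The 9 points share libraries and controls within each experiment, and these values are descriptions.

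Other genes of the pathway were listed by role, and their counts of calls stand against the shares of all genes called, which were 6.77% and 50% after 4 h and 24 h of DHT, 13.6% and 33.4% after 4 h and 24 h of enzalutamide, 42.1% for enzalutamide in siControl cells and 55.6% for siGATA2 under vehicle. Nothing particular to a list is read from its count. Among the upstream ligands of the ErbB and FGF receptors, 5 were tested in the ligand experiment. HBEGF, a ligand of the EGF receptor, fell after DHT by 1.52-fold at 4 h (edgeR adjusted p = 0.00366) and 1.88-fold at 24 h (edgeR adjusted p = 2.44e-05), and TGFA, another, by 1.53-fold at 24 h (edgeR adjusted p = 1.36e-05). EGF rose 1.68-fold after 24 h of enzalutamide (edgeR adjusted p = 1.08e-06), where 2 of the 5 ligands rose and 0 fell and the list median was 0.31. In siControl cells EGF rose 2.20-fold with enzalutamide (limma adjusted p = 4.01e-07), 2 of 8 tested ligands being higher and 0 lower. The interaction for EGF was log2 -1.05 (limma adjusted p = 2.66e-05). With siGATA2 under vehicle, HBEGF was 1.99-fold higher (limma adjusted p = 9.4e-07) and TGFA 1.89-fold lower (limma adjusted p = 9.58e-07).

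Of 11 receptor tyrosine kinases, 2 were higher and 1 lower after 4 h of DHT and 3 higher and 2 lower after 24 h. IGF1R, the receptor of insulin-like growth factor, was 2.33-fold higher at 4 h (edgeR adjusted p = 2.90e-09), and FGFR3 was 2.98-fold higher at 24 h (edgeR adjusted p = 7.54e-06). After 24 h of enzalutamide 4 receptors were higher and 2 lower. With siGATA2 under vehicle 3 were higher and 4 lower, with ERBB2, the HER2 receptor, 2.02-fold higher (limma adjusted p = 1.61e-08) and IGF1R 1.76-fold lower (limma adjusted p = 5.08e-07). Of the 18 genes of the cascade from adaptors to ERK, 1 was higher and 0 lower after 4 h of DHT, 4 higher and 6 lower after 24 h of DHT, and 5 higher and 0 lower after 4 h of enzalutamide. The adaptor GAB1 was 1.31-fold higher after 4 h of enzalutamide (edgeR adjusted p = 0.00106) and 1.81-fold lower after 24 h of DHT (edgeR adjusted p = 2.13e-07). With siGATA2 under vehicle 10 cascade genes were higher and 5 lower (list median 0.17), against 55.6% of all genes called, including a 1.70-fold rise of the kinase BRAF (limma adjusted p = 3.25e-07). Among 7 JNK and p38 kinases, 3 were higher and 0 lower after 24 h of DHT.

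Among the 6 other MAPK phosphatases tested, 3 were lower and 0 higher after enzalutamide at either time. DUSP9 was 1.51-fold lower after 4 h (edgeR adjusted p = 0.00612). DHT for 24 h raised 3 and lowered 2, with DUSP2 1.68-fold higher (edgeR adjusted p = 5.09e-06). All 6 changed with siGATA2 under vehicle, where 55.6% of all genes did, 3 in each direction, with DUSP10, a phosphatase of p38 and JNK, 2.30-fold higher (limma adjusted p = 1.52e-07) and DUSP9 2.88-fold lower (limma adjusted p = 2.11e-07). Of 10 other inhibitors of RAS-ERK signaling tested, 1 was higher and 0 lower after 4 h of DHT. That was LRIG1, a membrane inhibitor of ErbB receptors, at 1.84-fold (edgeR adjusted p = 1.37e-08). With siGATA2 under vehicle 5 of these were higher and 3 lower.

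The downstream list held genes that ERK signaling is known to induce, 11 of which were tested in the ligand experiment and 17 in the siRNA experiment. After enzalutamide 1 was higher and 4 were lower at 4 h, where 13.6% of all genes were called, and 1 was higher and 4 were lower at 24 h, where 33.4% were. CCND1, cyclin D1, was 1.42-fold lower at 4 h (edgeR adjusted p = 3.54e-07), and PHLDA1 was 1.90-fold lower at 24 h (edgeR adjusted p = 0.000825). After DHT 1 was higher and 2 were lower at 4 h, and 2 higher and 2 lower at 24 h. In siControl cells enzalutamide raised 6 and lowered 4, with FOS 2.97-fold higher (limma adjusted p = 0.00113) and PHLDA1 3.21-fold lower (limma adjusted p = 2.79e-07). With siGATA2 under vehicle 4 were higher and 5 lower, including a 3.29-fold fall of MYC (limma adjusted p = 4.43e-10) and a 3.91-fold fall of PHLDA1 (limma adjusted p = 2.13e-08). In siGATA2 cells enzalutamide gave 0 calls in all 7 of these pathway lists by limma, where 0.412% of all genes were called. At that share, 0 calls are not read as a result about the lists. Of the 17 ERK target genes 4, and of the 8 ligands 0, had an unadjusted limma p below 0.05.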

How the data were processed

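RNA-seq of LNCaP cells was taken from 2 experiments, and samples were grouped by their labels. For the ligand experiment the authors deposited estimated counts per gene, not normalized, which were rounded here. For the siRNA experiment the deposited values were taken as RPKM, a unit inferred from the values, so no count test was run on them. The submitters' processing notes name TopHat2 2.0, Partek and hg19. The methods give poly(A) selection and a directional library kit, and whether counting used strand was not given in the sources used here. Vehicle columns that carry replicate number 1 (3 in all) were summed. A gene absent from one of the ligand tables was set to 0 there. The number of unused columns of per-sample values is 0.

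For the ligand counts, 1 quasi-likelihood model of all 5 conditions was fitted over 15555 genes (edgeR 4.0.16, R 4.3.3, with TMM factors and filterByExpr), and for log2(RPKM + 0.1) a limma 3.58.1 model of all 4 conditions, with the variance allowed to follow a trend, over 20369 genes above 0 in at least 3 libraries. P-values were adjusted by Benjamini-Hochberg over all genes tested in each comparison, and 0.05 was the threshold. Depth in the siRNA experiment, read from the steps between low values of 717 genes, was 0.847 to 1.107 times the median library. On simulated data, with 15338 genes for DHT at 4 h against vehicle, the test recovered 86.9% of the genes set to change 2-fold and 76.8% of those set to 1.5-fold. For enzalutamide in siGATA2 cells (20358 genes) it recovered 99% and 83%. There, changes were set only in genes with a mean log2(RPKM + 0.1) above 0 in siControl cells under vehicle. SPRY4 and DUSP6 lay below that level, so these 99% and 83% do not cover them.

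The members and gene lists were chosen with earlier results of these data known. All members are named. Of each other list, at most 2 genes per comparison are named, from those with the largest log2 fold change that passed, averaged at least 1 CPM or RPKM and did not overlap between groups. Likeness of pattern took the 3 genes with the highest Pearson r for DUSP6, SPRY4 and ERRFI1. Alternatives were DESeq2 1.42.0, RLE factors or library size, other filters, pseudocounts and scalings, limma without a trend, the 4 vehicle columns apart, the replicate number as a block and each library left out. The set named in the column headers as a term, fitted with the 4 vehicle columns apart, was added after the data were seen. Promoter windows are from RefSeq, a different build (GRCh38.p14) from that of the counts, and were matched by symbol only. One gene of the luminal list and one motif are not reported here. Figures were drawn with matplotlib 3.10.9.

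In the labels the conditions share replicate numbers. Set against their condition means, libraries with the same number deviated with correlations of -0.161 to 0.194 (10 pairs of conditions) and -0.342 to 0.28 (18), so the numbers were not taken to pair the samples.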

Additional observations from a re-analysis of the deposited data

Results flagged for a closer look

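Of the 9 members besides SPRY4, 5 differed between 4 h and 24 h of DHT by a direct edgeR test of the difference, against 49.8% of all genes. DUSP4 (log2 0.63, adjusted p = 6.31e-07) and SPRED2 (0.14, adjusted p = 0.0289) were higher at 24 h. ERRFI1 (-0.61, adjusted p = 7.05e-07), SPRED1 (-0.41, adjusted p = 0.00612) and DUSP1 (-0.15, adjusted p = 0.0362) were lower at 24 h. The calls of SPRED2 and DUSP1 were lost in DESeq2, with the header set as a term and without any single DHT library. That of SPRED1 was lost without the second 24 h DHT library. SPRY4 (log2 3.20) passed the filter on low counts only through the 24 h libraries where it was high, so its difference is a description. Between 4 h and 24 h of enzalutamide, DUSP1 differed (log2 -0.20, edgeR adjusted p = 0.0199), where 24.6% of all genes were called. The enzalutamide call of DUSP1 was lost in DESeq2, with the header set as a term and without either 24 h enzalutamide library.

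The response to enzalutamide differed between siControl and siGATA2 cells, by the interaction term in limma, for 4 of the 10 members, against 25.8% of all genes. It was lower with siGATA2 for DUSP5 (log2 -0.80, adjusted p = 0.000273), ERRFI1 (-0.46, adjusted p = 2.72e-05) and DUSP1 (-0.42, adjusted p = 0.0128), and higher for DUSP4 (0.36, adjusted p = 0.00131). For DUSP1 and DUSP4 the 2 responses had opposite signs, and neither DUSP1 response passed by itself.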

How the results depend on the processing

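Over 130 log2 values of members and 2400 recomputed values, 2231 kept their direction and their side of the threshold, 79 lost the threshold, 24 gained it and 66 changed sign, of which 0 were called values. Depth limits SPRY4 and DUSP6 in the ligand experiment, and with 2 libraries per condition most small calls rest on each library. Causes were not tested.

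In the ligand comparisons SPRY4 passed the filter only through its 24 h libraries, so its part in the counts below is a description. Without SPRY4 the main edgeR counts were 4 for enzalutamide at 24 h, 6 for DHT at 24 h and 5 for 24 h against 4 h of DHT. The number of members called, SPRY4 included, moved by over 1.5 times as follows. For enzalutamide at 24 h (5 in edgeR) it was 2 in DESeq2, which gave an adjusted p for 9 members and none for SPRY4, 3 with the header set as a term and 2 to 5 without 1 library (3 without either vehicle library, 2 without either of its own). For DHT at 24 h it was 4 with the header set. For 24 h against 4 h of enzalutamide it was 2 without a filter, 0 in DESeq2 and 0 with the header set (edgeR), with 2 members at an unadjusted p below 0.05 in each of the last 2 fits, and 0 to 2 without 1 library (0 without either 24 h library, where edgeR gave 1 and 2 members at an unadjusted p below 0.05, and 2 without the second 4 h library). For 24 h against 4 h of DHT it was 3 with the header set and 3 to 6 without 1 library (3 without the second 24 h library). For DHT against enzalutamide at 4 h it was 4 without a filter. For enzalutamide at 4 h it was 1 to 2 without 1 library (2 without the first of its own). For enzalutamide in siGATA2 cells it was 0 in limma at a mean of at least 1 RPKM, where SPRY4 was not tested, and 0 to 1 without 1 library (0 without any siGATA2 library), with 3 to 4 members at an unadjusted p below 0.05.

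With the replicate block, limma called 0 members for enzalutamide in siGATA2 cells (4 at an unadjusted p below 0.05). The block also ended the edgeR calls of SPRED1 after 4 h of DHT (adjusted p = 0.051) and DUSP1 between 4 h and 24 h of DHT (0.052) and added DUSP5 for DHT against enzalutamide at 4 h (0.0449), and changed no other call of a member.

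Sign changes of values that were not called were these. With the header set as a term, values became 0.043 for SPRED2 (enzalutamide at 4 h), 0.22 for SPRY2 (DHT at 24 h), 0.36 for DUSP5 (24 h against 4 h of enzalutamide), -0.024 for SPRED2 (DHT against enzalutamide at 4 h), 0.14 for SPRY2 (DHT against enzalutamide at 24 h) and 0.089 for SPRY4 (DHT against enzalutamide at 24 h). With RLE factors, values became -0.0043 for SPRY2 (enzalutamide at 24 h), 0.0036 for SPRED1 (DHT at 24 h) and 0.0089 for DUSP1 (DHT against enzalutamide at 24 h). In DESeq2, values became -0.028 for SPRY2 (enzalutamide at 24 h), 0.0030 for SPRED1 (DHT at 24 h) and 0.0088 for DUSP1 (DHT against enzalutamide at 24 h). With the replicate block, the value became -0.00071 for SPRY2 (enzalutamide at 24 h). With library size only, the value became -0.0093 for SPRED2 (DHT at 4 h). With the vehicle columns apart, the value became 0.015 for SPRY2 (DHT at 24 h). With quantile normalization, values became 0.021 for SPRY1 (enzalutamide in siControl cells) and 0.036 for DUSP6 (siGATA2 under enzalutamide). With median centering, the value became 0.0069 for SPRY1 (enzalutamide in siControl cells). With a pseudocount of 1, the value became 0.11 for SPRY4 (the interaction). Over the fits without 1 library, signs also changed in these ranges. For enzalutamide at 4 h: DUSP5 -0.12 to 0.043, DUSP6 -0.040 to 0.55, SPRED1 -0.045 to 0.39, SPRED2 -0.049 to 0.023, SPRY1 -0.21 to 0.047, SPRY2 -0.28 to 0.34 and SPRY4 -0.0029 to 1.15. For enzalutamide at 24 h: DUSP5 -0.18 to 0.017, SPRY1 -0.18 to 0.12 and SPRY2 -0.31 to 0.31. For DHT at 4 h: SPRED2 -0.027 to 0.044 and SPRY2 -0.62 to 0.14. For DHT at 24 h: SPRED1 -0.090 to 0.068 and SPRY2 -0.34 to 0.28. For 24 h against 4 h of enzalutamide: DUSP5 -0.13 to 0.064, SPRY1 -0.072 to 0.21 and SPRY2 -0.19 to 0.16. For 24 h against 4 h of DHT: DUSP5 -0.65 to 0.0035 and SPRY2 -0.17 to 0.60. For DHT against enzalutamide at 4 h: SPRY2 -0.66 to 0.10. For DHT against enzalutamide at 24 h: DUSP1 -0.013 to 0.0026, SPRY2 -0.30 to 0.25 and SPRY4 -0.82 to 0.30. For enzalutamide in siControl cells: SPRY2 -0.0076 to 0.018. For enzalutamide in siGATA2 cells: SPRY1 -0.016 to 0.14. For siGATA2 under enzalutamide: DUSP6 -0.14 to 0.015 and SPRED2 -0.027 to 0.046. For the interaction: SPRED1 -0.075 to 0.023.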
